A study of Mus musculus with 6 samples.

Results

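Integrins and the adaptor proteins of focal adhesions were followed in primary mouse hepatic stellate cells, the vitamin A-storing pericytes of the liver, after 1 day in culture. The set held every gene whose mouse symbol names an integrin alpha or beta subunit (26 genes) and 18 adaptor genes taken from a fixed list, 44 of the 17909 genes listed in the files. Of the 44, 43 had a read in at least 1 library, and 9 are treated apart as leukocyte integrins and adaptors, which leaves 35. The rule reads gene symbols and that list, not measured values.

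Cells came from male C57BL/6 mice of 24 weeks. HAS2_Tg mice (replicates 4, 5 and 6) carried a human HAS2 transgene behind the alpha smooth muscle actin promoter, which is active in any smooth muscle-like cell and not only in stellate cells. Has2_KO mice (replicates 7, 8 and 9) lacked Has2 in cells in which Lrat-Cre had removed the floxed gene. HAS2 makes hyaluronan, a matrix polysaccharide. Both groups had the same isolation, by enzymatic perfusion, a Nycodenz gradient and depletion of Cd11b-positive cells on magnetic beads, and the same culture in medium with 10% serum for 4 h and then 14 h. No wild-type library was analysed here, so each difference below is between transgene and deletion and belongs to neither alone. The labels do not say whether a library was 1 animal, so p-values measure the spread between libraries, which may be technical.

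Integrins are receptors made of 1 alpha and 1 beta chain that hold cells to collagen, laminin, fibronectin and other matrix proteins. Inside the cell the beta tail is bound by talins and kindlins, which switch the receptor on. The complex of integrin-linked kinase, PINCH and parvin, the kinase and scaffold proteins around paxillin, and linkers such as vinculin then join it to actin and to signalling. Stellate cells that turn into myofibroblasts are known to build larger focal adhesions, and integrins with the alpha-v chain are known to release TGF-beta from its latent form.

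Library depth was 11961726 to 12423220 expected counts, and 3 libraries a group limit precision. HAS2_Tg replicate 4 stood apart from its group: chi-square per degree of freedom of its counts was 22.8 and 31.5 against replicates 5 and 6, which stood at 6.24 against each other, while the Has2_KO pairs lay between 2.31 and 3.17. Counts of mouse Has2 were 847, 889 and 835 in HAS2_Tg and 1 in every Has2_KO library; whether reads of the human transgene were counted with it was not tested. Defining stellate cell genes were present in all libraries: the 18 on the marker list summed to 14457 to 14781 CPM (read counts relative to the TMM-scaled library size) in HAS2_Tg and to 8873 to 9289 CPM in Has2_KO. Of these 18, 14 were called higher and 4 not called, beside 20.2% called higher among all genes tested. Their median log2 fold change was 0.79. Other cells left traces that differed between the groups. The 20 macrophage markers summed to 15.7 to 18.0 CPM in HAS2_Tg and to 638 to 685 CPM in Has2_KO, and Clec4f and Timd4 had no count in HAS2_Tg. Of 20 endothelial markers 19 were lower in HAS2_Tg, against 20.5% of all genes tested. Those near 0 in HAS2_Tg, such as Gpihbp1 and Emcn with no count there, could be tested only through Has2_KO, which fixes their direction. Without Plvap, the 1 that was higher, the endothelial markers summed to 26.3 to 30.0 CPM against 1167 to 1271 CPM. In bulk RNA, fewer cells of a type and less RNA per cell cannot be told apart.

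Most integrins and adaptors outside the leukocyte set were higher in HAS2_Tg. Of the 35, 32 passed the low-count filter, 21 of them were higher and 4 lower (edgeR adjusted p under 0.05), and 7 did not pass. Across all 13014 genes tested, 40.7% were called, 20.2% as higher and 20.5% as lower. The median log2 fold change was 0.65 for these 32 genes and -0.0065 for all genes tested. For the 18 stellate markers it was 0.79, so a rise of this size was not particular to integrins and adaptors. Most differences were moderate, with 6 of the 21 at least 2-fold higher and 1 of the 4 at least 2-fold lower, against 3.31% and 7.91% of all genes. CPM ranges of the groups did not overlap for 23 genes in the higher direction and 5 in the lower, against 25.2% and 26.9% of all genes. Without HAS2_Tg replicate 4, 22 of 33 tested genes were higher and 5 lower. The sum of a marker list for vascular smooth muscle and portal fibroblasts was higher in HAS2_Tg along with these genes. Its 17 genes came to 1818 to 2140.1 CPM against 475 to 501 CPM, with 7 of 12 tested called higher and 3 lower. Those 3 were Thy1, Cd34 and Fbln2, with log2 fold changes of -2.17, -2.13 and -0.69, so the list did not move as a whole. Myh11, smooth muscle myosin, carried most of the HAS2_Tg sum, at 1270.4 ± 127 against 108 ± 6.57 CPM (SD, n = 3), and none of the 17 was at 0 in all libraries of a group. The part of these cells in the values was not tested. With total counts as the scale the median of all genes moved by more than 0.1, to -0.18, and that of these genes to 0.47, with 20 higher and 6 lower.

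**Figure D1:**
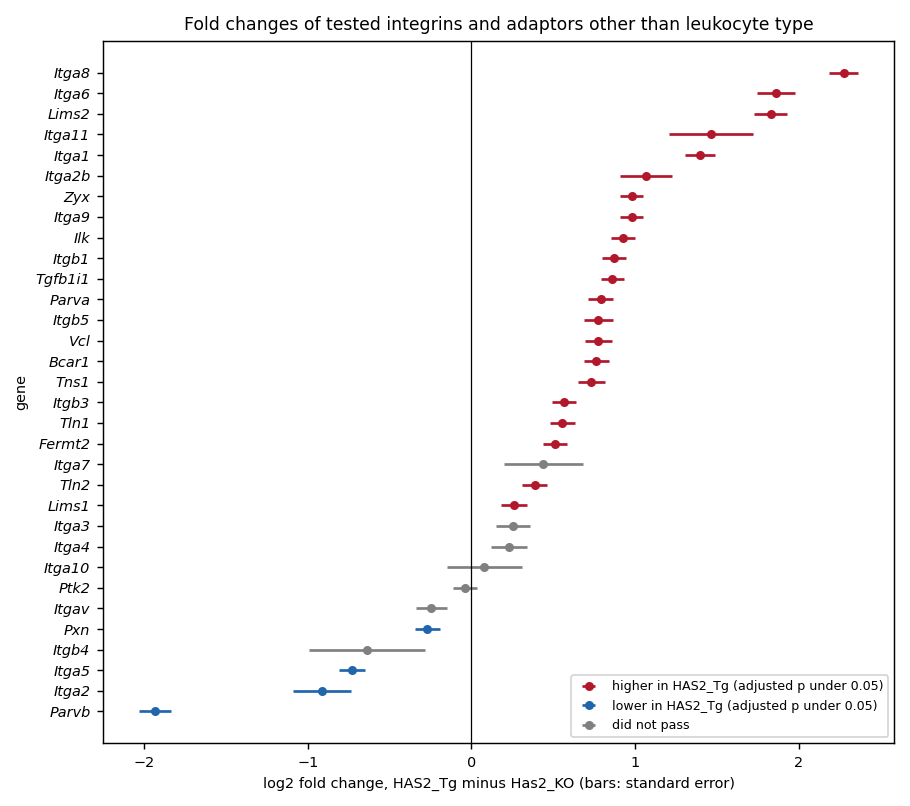
Log2 fold change (HAS2_Tg minus Has2_KO, x axis) of each of the 32 tested integrins and adaptors outside the leukocyte set, with bars for the standard error and colours for the edgeR call. Itga8 stands at one end at 2.27 and Parvb at the other at -1.93, with 21 genes called higher and 4 lower.

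Collagen receptors are represented by Itga1, Itga2, Itga10 and Itga11, whose products all pair with Itgb1. Itga1, the main collagen receptor chain of smooth muscle and stellate cells, lies on chromosome 13 from 114958079 to 115101964 (GRCm38, minus strand). It had 626, 717 and 816 CPM in HAS2_Tg and 268, 275 and 277 CPM in Has2_KO. The transgenic libraries were spread more widely but all stood above the knockout ones, with a log2 fold change of 1.40 (SE 0.09, adjusted p = 1.20e-08). Itga11, a chain known from fibroblasts, had few counts, at 6.10, 3.40 and 6.29 CPM against 1.52, 2.20 and 1.98 CPM. Its groups did not overlap either (1.46, SE 0.26, adjusted p = 0.000338). Itga2, the other widely expressed collagen-binding chain, went the opposite way, with 4.31, 5.76 and 7.86 CPM against 12.2, 10.3 and 11.3 CPM (-0.91, SE 0.18, adjusted p = 0.000789). Itga10, known from cartilage, was between 2.27 and 4.01 CPM in all libraries, its groups overlapped, and it did not pass (0.078, SE 0.23). Of the 4 collagen-binding chains, then, 2 were higher, 1 lower and 1 not called.

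Laminin receptors use the chains Itga3, Itga6 and Itga7. Itga6 was 22.0, 23.3 and 25.8 CPM in HAS2_Tg and 6.16, 6.60 and 6.79 CPM in Has2_KO. That separation, with no overlap, gave a log2 fold change of 1.86 (SE 0.11, adjusted p = 5.98e-09). Itga3, a laminin receptor chain of epithelia, did not pass at 28.8 to 30.0 CPM against 21.9 to 28.7 CPM, ranges that just missed each other (0.25, SE 0.11, adjusted p = 0.0699). Has2_KO replicate 7 was the high knockout library, and without it Itga3 had 0.37 and an adjusted p of 0.0196. Other settings went the other way, with 0.17 (adjusted p = 0.291) without Has2_KO replicate 9, 0.080 (adjusted p = 0.565) with total counts and 0.074 to 0.087 in limma on FPKM. Itga7, a muscle laminin receptor chain, had 2.15, 2.35 and 2.10 CPM against 1.90, 1.44 and 1.53 CPM and did not pass (0.44, SE 0.24). Itgb4, which pairs with Itga6 in epithelial hemidesmosomes, had 1.44, 0.70 and 0.70 CPM against 1.29, 1.21 and 1.91 CPM. It did not pass (-0.64, SE 0.35, adjusted p = 0.166), but did without HAS2_Tg replicate 4, its highest transgenic library (-1.07, adjusted p = 0.0388), while without Has2_KO replicate 9 it had -0.41 (adjusted p = 0.479).

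Receptors for the RGD motif of fibronectin, vitronectin and latent TGF-beta moved in different directions. Itga8, the chain of a nephronectin and fibronectin receptor found on stellate cells and smooth muscle, had 116, 125 and 128 CPM in HAS2_Tg against 26.1, 22.8 and 27.2 CPM in Has2_KO. Itga8 showed the largest rise among tested members, 2.27 on the log2 scale (SE 0.09, adjusted p = 3.54e-11), or 4.84-fold. It lies on chromosome 2 from 12106632 to 12301985 (GRCm38, minus strand). Itga5, the chain of the classical fibronectin receptor, was lower in each transgenic library, with 109.6, 114 and 98.4 CPM against 174, 179.7 and 181 CPM. The difference of -0.73 (SE 0.08, adjusted p = 2.30e-06) was larger than the spread of either group. Itgav, the alpha-v chain, had 249, 319 and 330.2 CPM against 345, 369 and 350.4 CPM. Its groups did not overlap, yet the difference of -0.24 (SE 0.10) missed the threshold at an adjusted p of 0.0561. This call depended on the method: with total counts it was -0.42 (adjusted p = 0.00311), without HAS2_Tg replicate 6 -0.32 (adjusted p = 0.0119), and upper-quartile scaling (-0.25), both other filters (-0.24 and -0.26) and limma on FPKM (-0.42 and -0.43) also called it lower. Without HAS2_Tg replicate 4, the lowest library, it had only -0.13 (adjusted p = 0.119). Itga2b, the platelet fibrinogen receptor chain, was 7.36, 8.72 and 7.78 CPM against 3.88, 3.41 and 4.12 CPM, higher in HAS2_Tg with no overlap (1.06, SE 0.16, adjusted p = 7.30e-05). Of 10 platelet markers 7 were listed, summing to 1.57 to 1.97 CPM in HAS2_Tg and to 16.4 to 18.7 CPM in Has2_KO, with Ppbp and Treml1 at no count in HAS2_Tg. Pf4, the 1 of them that could be tested, made up nearly all of that difference (1.15 ± 0.25 against 16.3 ± 0.81 CPM, SD, n = 3), and the others were below 1.3 CPM in every library.

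Itga9, whose chain binds tenascin, osteopontin and VCAM1, was by FPKM among the most abundant alpha subunits, with 709.7, 709 and 727 CPM in HAS2_Tg against 358, 359 and 373 CPM in Has2_KO. The libraries of each group lay close together and far from the other group (0.98, SE 0.07, adjusted p = 3.02e-08). Itga4, its closest relative and a chain known mainly from leukocytes, overlapped between groups at 16.0 to 20.0 and 14.4 to 16.4 CPM (0.23, SE 0.11, adjusted p = 0.115). It passed as higher without HAS2_Tg replicate 4 (0.31, adjusted p = 0.0298), but had 0.15 (adjusted p = 0.331) without HAS2_Tg replicate 6, 0.056 (adjusted p = 0.709) with total counts and 0.033 to 0.048 in limma on FPKM.

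By FPKM the beta subunits were dominated by Itgb1, the common partner of the collagen, laminin and fibronectin receptor chains. It had 2758, 2830.1 and 2937 CPM in HAS2_Tg and 1527, 1562 and 1577 CPM in Has2_KO. This gene, on chromosome 8 from 128685654 to 128733579 (GRCm38, plus strand), was higher by 0.87 on the log2 scale (SE 0.08, adjusted p = 2.52e-07). Itgb5, a partner of the alpha-v chain in a vitronectin receptor, had 348, 284 and 280.0 CPM against 180.4, 181 and 172 CPM. HAS2_Tg replicate 4 stood above the other 2 transgenic libraries, and all 3 stood above the knockout ones (0.77, SE 0.09, adjusted p = 5.31e-06). Itgb3, another alpha-v partner, was higher too, at 113, 111 and 112 CPM against 74.3, 72.3 and 80.3 CPM (0.56, SE 0.07, adjusted p = 2.11e-05). Itgb8, an alpha-v partner known for TGF-beta release, had only 4, 7 and 7 counts against 10, 9 and 17, and Itgb6, an epithelial partner, had 2 counts in HAS2_Tg and 1 in Has2_KO. Neither passed the low-count filter, and no fold is given for them.

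**Figure D2:**
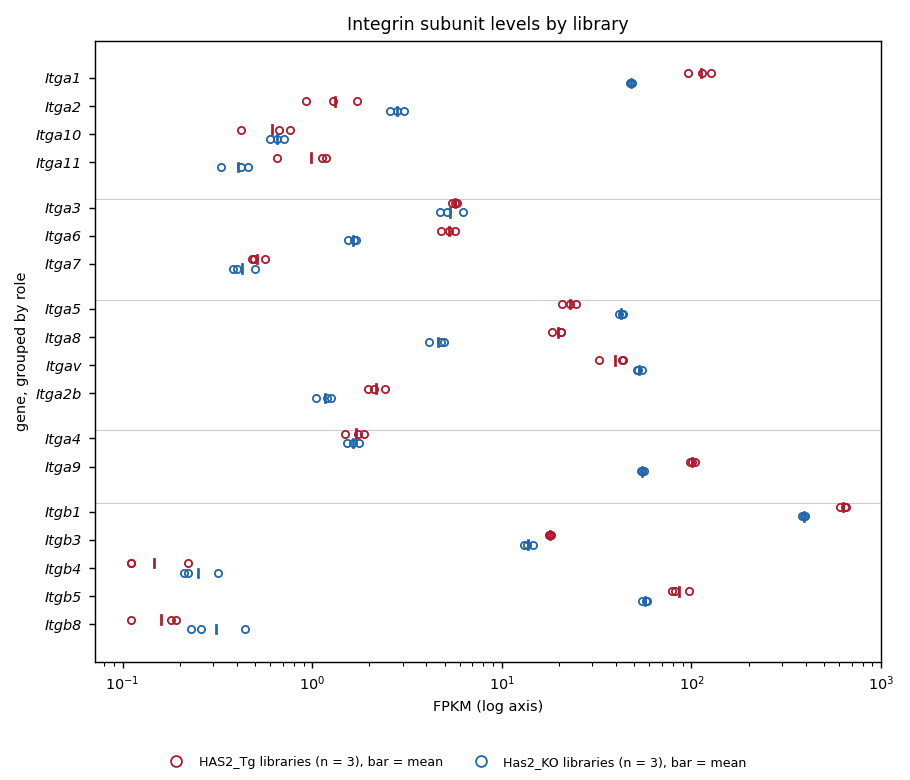
FPKM of each integrin subunit outside the leukocyte set (x axis, log scale) in every library, red for HAS2_Tg and blue for Has2_KO, with a bar at each group mean and lines between groups of chains with 1 kind of ligand. Itgb1 is the highest subunit in all 6 libraries, Itga8 and Itga6 show the widest gaps in favour of HAS2_Tg, and Itga5 and Itga2 lie higher in Has2_KO. Itgb6, with 3 counts in all, is left out.

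Levels of different subunits were set beside each other on the deposited FPKM scale (fragments relative to gene length and library total). In HAS2_Tg the order of alpha levels was Itga1 (112 ± 15.3 FPKM, SD, n = 3), Itga9 (101 ± 3.07), Itgav (39.5 ± 6.22), Itga5 (22.8 ± 1.98) and Itga8 (19.8 ± 1.25). The ranges of Itga1 and Itga9, 95.9 to 126 and 98.1 to 104 FPKM, overlapped, so their order was not resolved. In Has2_KO the leading alpha subunits were Itga9 (55.0 ± 1.30), Itgav (52.8 ± 1.83), Itga1 (48.0 ± 0.67) and Itga5 (42.7 ± 0.89). The first pair overlapped, at 54.0 to 56.5 and 51.5 to 54.9 FPKM, and the rest were separate. Alpha subunit FPKM summed to 313 ± 19.7 in HAS2_Tg and 232 ± 2.81 in Has2_KO, and beta subunit FPKM to 737 ± 14.6 and 476 ± 6.27 (exact permutation p = 0.1 for each, two-sided, the smallest that 3 against 3 libraries allow).

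As shares of a sum within each library, which need no scaling between libraries, the alpha chains were distributed differently in the groups. Itga1 made up 33.0%, 35.4% and 38.5% of alpha FPKM in HAS2_Tg and 20.6%, 20.7% and 20.7% in Has2_KO. For Itga5 the shares were 7.87%, 7.70% and 6.33% against 18.2%, 18.4% and 18.6%, and for Itgav 11.1%, 13.4% and 13.2% against 22.5%, 23.5% and 22.3%. Both lay lower in every transgenic library. Itga8 took 6.31% ± 0.07 and 1.99% ± 0.18 (SD, n = 3), and Itga9 32.4% ± 3.09 and 23.7% ± 0.41. Itgb1 held 85.8% ± 1.62 of beta FPKM in HAS2_Tg and 82.0% ± 0.29 in Has2_KO. The groups did not overlap for these 6 shares, each with an exact permutation p of 0.1 (0.117 after Benjamini-Hochberg adjustment over 7 shares). The seventh, Itgb5, overlapped at 11.7% ± 1.57 and 11.9% ± 0.48 (exact permutation p = 0.9). Leukocyte chains count in these sums and took a larger part in Has2_KO, where Itgax, Itgam, Itgal and Itgb2 held 3.24%, 2.14%, 0.96% and 3.06% of their class. HAS2_Tg minus Has2_KO, the mean share differed by 3.78 points for Itgb1 and by -3.00 points for Itgb2. The Itgb1 separation is thus shown only for a sum that includes Itgb2, and shares without leukocyte chains were not computed.

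**Figure D3:**
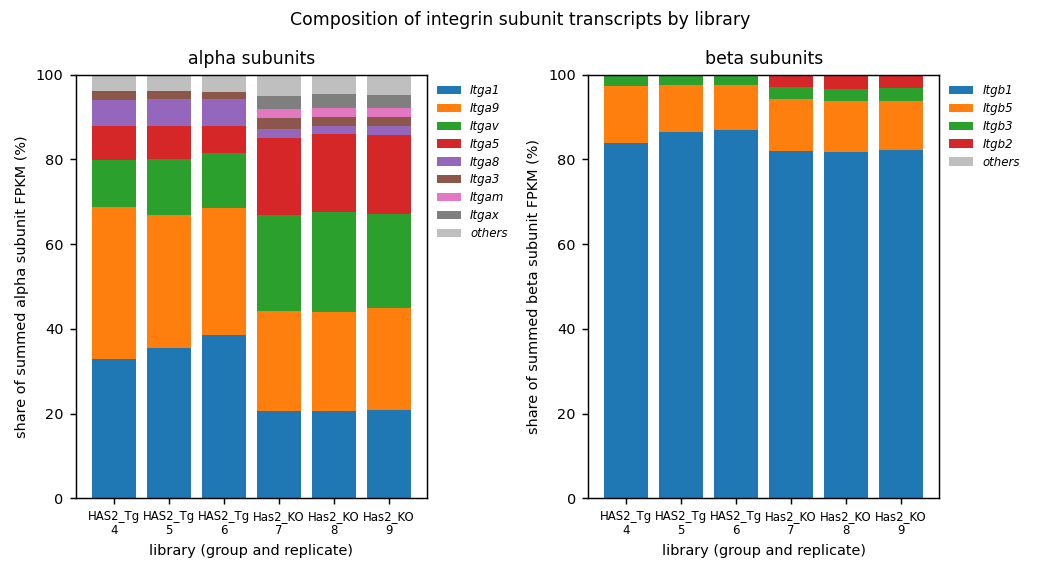
Stacked bars of each subunit's share (%) of the summed alpha (left) or beta (right) FPKM in every library, with subunits under 2% in both groups pooled as others. Itga1 and Itga9 together fill most of the alpha bar in the 3 HAS2_Tg libraries, Itgav and Itga5 are larger in the 3 Has2_KO libraries, and Itgb1 fills over 80% of every beta bar.

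Ratios between subunits were also taken within each library. The FPKM of Itgb1 was set over the summed FPKM of 11 alpha chains that pair with it, Itgav left out. This ratio was 2.36, 2.33 and 2.30 in HAS2_Tg and 2.38, 2.42 and 2.39 in Has2_KO. Those values lay within a narrow band, though without overlap. The band holds for that sum only, because Itgav can also pair with Itgb1 and a ratio that includes it was not computed. By FPKM Itgav stood at 39.5 in HAS2_Tg and 52.8 in Has2_KO. Itgav over the sum of its partners Itgb3, Itgb5, Itgb6 and Itgb8 was 0.281, 0.428 and 0.446 against 0.719, 0.770 and 0.747, a wider gap. The ratio of Itga1 to Itga5, collagen against fibronectin receptor chain, was 4.96 ± 0.99 in HAS2_Tg and 1.12 ± 0.01 in Has2_KO (SD, n = 3). For these 3 ratios the exact permutation p was 0.1, and 0.11 adjusted over the 11 ratios computed.

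Among the activators that bind the beta tail, Tln1, Tln2 and Fermt2 all rose. Tln1, the main talin, had 1475, 1369 and 1549 CPM in HAS2_Tg against 979, 1008 and 1003 CPM in Has2_KO (0.55, SE 0.08, adjusted p = 3.51e-05). Tln2, the talin of muscle and brain, had 324, 337 and 364 CPM against 259, 274 and 251 CPM. Its difference was the smaller of the pair (0.39, SE 0.08, adjusted p = 0.000798) and did not pass in limma on FPKM with no filter (adjusted p = 0.0635). Fermt2, the kindlin of mesenchymal cells, had 1155, 1231 and 1267 CPM against 875, 835 and 856 CPM (0.51, SE 0.07, adjusted p = 5.90e-05). None of these 3 genes overlapped between groups, and Fermt2 was the highest adaptor by FPKM in Has2_KO (279 ± 6.87) and second to Ilk in HAS2_Tg (351 ± 20.0). Fermt1, the epithelial kindlin, had 5 counts in HAS2_Tg and 15 in Has2_KO and was not tested.

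In the complex of integrin-linked kinase, PINCH and parvin, 4 of 5 genes rose and 1 fell. Ilk, its core pseudokinase, had 763, 681 and 701 CPM against 384, 359 and 387 CPM (0.93, SE 0.08, adjusted p = 1.37e-07). Parva, alpha-parvin, had 908, 814 and 912 CPM against 493, 534 and 498 CPM (0.79, SE 0.08, adjusted p = 9.61e-07). Both genes were clearly separated between groups. Parvb, beta-parvin, which competes with alpha-parvin for the kinase, showed the reverse: 17.3, 14.6 and 19.1 CPM in HAS2_Tg against 65.1, 65.3 and 64.3 CPM in Has2_KO. Parvb, on chromosome 15 from 84232043 to 84315689 (GRCm38, plus strand), showed the largest fall outside the leukocyte set (-1.93, SE 0.10, adjusted p = 6.00e-10), and its FPKM ratio to Parva was 0.0232 ± 0.0017 against 0.154 ± 0.0061 (SD, n = 3, exact permutation p = 0.1). Endothelial and macrophage markers were also lower in HAS2_Tg, and their part in the Parvb, Itga5 and Itga2 values was not tested.

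The PINCH genes differed in size of change. Lims2, PINCH-2, had 158, 127 and 119 CPM in HAS2_Tg and 36.8, 39.1 and 38.2 CPM in Has2_KO (1.83, SE 0.10, adjusted p = 2.17e-09). Lims1, PINCH-1, the form with the higher FPKM, had 461, 559 and 511 CPM against 426, 431 and 422 CPM (0.26, SE 0.08, adjusted p = 0.0175). The Lims1 call ended with total counts (0.087, adjusted p = 0.406), in limma on FPKM (0.081 to 0.082, adjusted p = 0.456 to 0.511), and without HAS2_Tg replicate 5 (adjusted p = 0.0783) or any 1 of Has2_KO replicates 7, 8 and 9 (0.0707, 0.0569 and 0.0760). The FPKM ratio of Lims2 to Lims1 was 0.892, 0.592 and 0.604 in HAS2_Tg and 0.225, 0.236 and 0.235 in Has2_KO. HAS2_Tg replicate 4 thus had the highest Lims2 and the lowest Lims1 of its group.

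**Figure D4:**
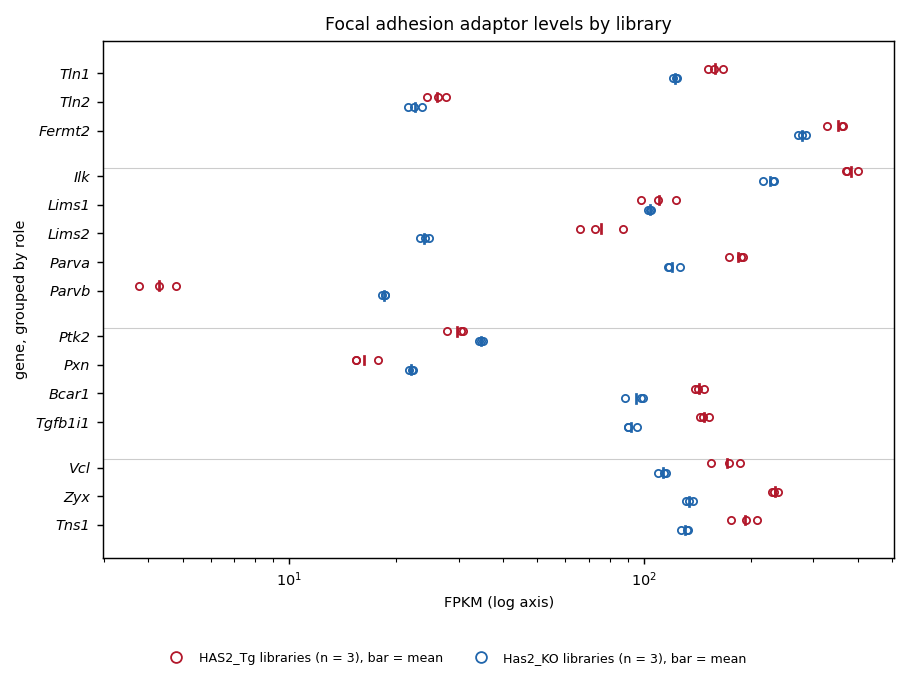
FPKM of 15 focal adhesion adaptors (x axis, log scale) in every library, red for HAS2_Tg and blue for Has2_KO, with a bar at each group mean and lines between groups of related role. Lims2 and Parvb show the widest gaps, in opposite directions, while Lims1, Ptk2 and Tln2 have the closest groups.

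Signalling proteins at the adhesion split. Bcar1, the scaffold p130Cas, had 486, 462 and 502 CPM against 296, 265 and 294 CPM (0.76, SE 0.08, adjusted p = 1.06e-06). Tgfb1i1, the paxillin relative Hic-5, had 507, 469 and 471 CPM against 276, 260.3 and 261 CPM (0.86, SE 0.07, adjusted p = 1.76e-07). Both were higher in all transgenic libraries. Pxn, paxillin itself, was slightly lower, with 61.7, 69.0 and 61.3 CPM against 77.2, 78.1 and 76.3 CPM (-0.27, SE 0.08, adjusted p = 0.0116). The FPKM ratio of Tgfb1i1 to Pxn was 9.16 ± 0.87 in HAS2_Tg and 4.16 ± 0.15 in Has2_KO (SD, n = 3, exact permutation p = 0.1). Ptk2, focal adhesion kinase, had 134, 142 and 143 CPM against 146, 141 and 144 CPM. Its groups overlapped and it did not pass (-0.039, SE 0.07, adjusted p = 0.691), although total counts (-0.21, adjusted p = 0.0260) and limma on FPKM (-0.22 to -0.23) placed it lower.

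All 3 linkers to actin rose. Vcl, vinculin, had 877, 953 and 1049 CPM in HAS2_Tg against 543, 573 and 569 CPM in Has2_KO (0.77, SE 0.08, adjusted p = 2.06e-06). Zyx, zyxin, which gathers at adhesions under tension, had 633, 589 and 611 CPM against 309.9, 317 and 304 CPM (0.98, SE 0.07, adjusted p = 3.56e-08). Tns1, tensin-1, had 1913, 2041 and 2241 CPM against 1203, 1268 and 1261 CPM (0.73, SE 0.08, adjusted p = 3.97e-06). The groups were apart for each, with Zyx the tightest within groups.

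Because many members moved together, the 250 bases upstream of the annotated starts were searched on both strands for short motifs, in the promoter table of RefSeq (GRCm38.p6), which held 30 of the 44 genes. A CArG box, the element bound by serum response factor, was found in Vcl, Fermt2 and the barely expressed Itgb6, 3 of 30 genes, against 1.62% of the 27025 genes in the table. The match began 227 bases before the start in Vcl and 204 in Fermt2. The GC box GGGCGG was in 16 of the 30 (53.3%, against 35.4% of all), the TEAD motif GGAATG in 3 (10%, against 14.4%), the AP-1 motif TGANTCA in 2 (6.67%, against 7.82%) and the PU.1 motif GAGGAAGT in 4 (13.3%, against 2.79%), none of them among the 5 leukocyte members with an entry. Overlapping matches were counted. The stretches below run from 250 to 101 bases before the start of Vcl (chr14:20929148-20929297, plus strand), of Itga8, the gene with the largest rise (chr2:12302045-12302194, minus strand), and of Parvb, with the largest fall outside the leukocyte set (chr15:84231793-84231942, plus strand). For Fermt2, whose window lies almost wholly within the annotated gene, only the match with 10 bases on each side is shown (chr14:45530250-45530279, minus strand). Capitals mark the CArG box.
Vcl: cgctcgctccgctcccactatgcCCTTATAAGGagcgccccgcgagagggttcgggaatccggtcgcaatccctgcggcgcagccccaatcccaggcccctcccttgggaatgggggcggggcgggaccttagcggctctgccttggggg
Fermt2: tccttcatttCCATAAAAGGgcagcgctcc
Itga8: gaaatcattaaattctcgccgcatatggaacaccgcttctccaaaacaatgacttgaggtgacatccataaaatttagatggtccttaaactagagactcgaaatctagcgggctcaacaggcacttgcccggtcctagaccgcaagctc
Parvb: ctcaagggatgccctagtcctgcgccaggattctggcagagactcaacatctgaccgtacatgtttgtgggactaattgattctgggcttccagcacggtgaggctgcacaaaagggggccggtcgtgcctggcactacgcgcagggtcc
A match describes letters in this window and shows no binding. The windows of Itga8 and Parvb held no CArG box, and the part of serum response factor in these changes was not tested.

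Leukocyte integrins were nearly absent from HAS2_Tg and present at low levels in Has2_KO. Itgax, the Cd11c chain of dendritic cells and macrophages, had 1, 1 and 1 counts in HAS2_Tg and 376, 386 and 370 in Has2_KO. Itgam, the Cd11b chain that the depletion beads bind, had 2, 0 and 1 counts against 268, 301 and 303, and Itgal, the chain of LFA-1, had 0, 1 and 2 against 141, 152 and 145. Each thus came to 3 rounded counts over the transgenic group. The ratio of group sums, Has2_KO over HAS2_Tg, scaled by library size, was 326 for Itgax (95% exact interval 111 to 1582), 251 for Itgam (85.6 to 1219) and 126 for Itgal (42.9 to 614). Itgb2, the beta-2 chain that pairs with all 3, had 17, 9 and 16 counts against 458, 574 and 524, or 1.24 ± 0.40 against 39.4 ± 4.38 CPM (SD, n = 3, log2 fold change -4.99, SE 0.18, adjusted p = 1.28e-11). Such intervals cover counting error only, because without molecular identifiers several reads can stem from 1 molecule.

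Other leukocyte members were rarer. Itgae and Itgb7, chains of intraepithelial lymphocyte receptors, had 5 and 3 counts over the HAS2_Tg libraries and 11 and 15 over Has2_KO, and Itgad was listed in no library, which allows up to 3 counts in each group. None of these 3 was tested. Fermt3, the kindlin of blood cells, had 3.32, 2.44 and 2.80 CPM against 13.8, 10.8 and 13.8 CPM (-2.16, SE 0.17, adjusted p = 9.12e-08). The groups did not overlap. Parvg, the parvin of blood cells, had 1, 0 and 2 counts against 36, 35 and 26, 27.9 times as many in Has2_KO after scaling (95% exact interval 9.27 to 138). All 6 leukocyte members that were tested were lower in HAS2_Tg, but those near 0 there could pass the low-count filter only through Has2_KO, which fixes their direction. Of the macrophage markers, 18 of 18 tested were lower too, as were 3 of 4 tested neutrophil markers, against 20.5% of all genes tested. Of 11 neutrophil markers 8 were listed, summing to 30.2 to 35.0 CPM in HAS2_Tg and to 45.2 to 48.8 CPM in Has2_KO. Cxcr2, not called, carried most of these sums (31.4 ± 2.29 against 30.8 ± 2.06 CPM, SD, n = 3). S100a8, Elane, Ngp and Camp had at most 2 counts in any library. For markers near 0 in HAS2_Tg, such as Clec4f and Clec4d, the filter fixed the direction in the same way. The part of macrophages and neutrophils in these values was not tested.

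**Figure D5:**
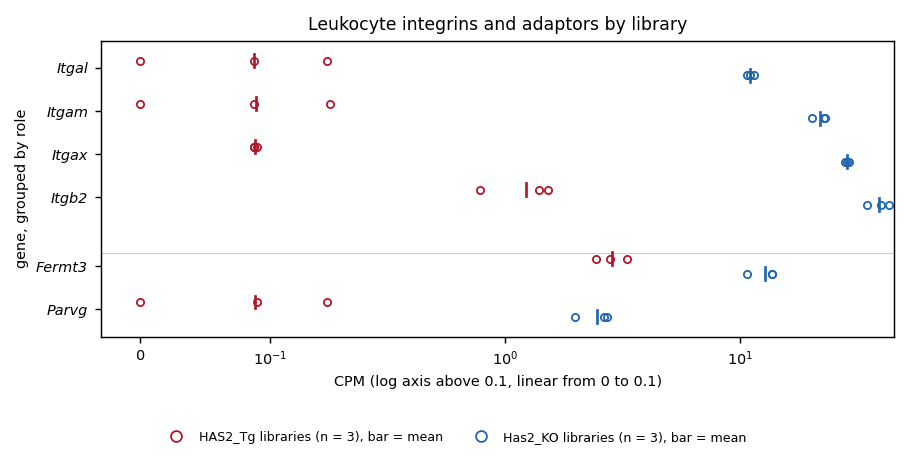
CPM of the 6 tested leukocyte integrins and adaptors in every library (x axis, log scale above 0.1 and linear from 0 to 0.1), red for HAS2_Tg and blue for Has2_KO, with a bar at each group mean. For Itgal, Itgam and Itgax all HAS2_Tg libraries lie below 0.2 CPM and all Has2_KO libraries above 10 CPM, while Fermt3 has the smallest gap.

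Other genes of the pathway were taken from fixed lists. Among ligands of integrins 22 of 34 tested genes were higher in HAS2_Tg, 6 lower and 6 not called (median log2 fold change 0.43), beside 20.2% higher and 20.5% lower among all genes tested. Tgfb3, a TGF-beta held in latent form until alpha-v integrins or proteases free it, had 660 ± 55.9 against 90.6 ± 3.74 CPM (2.86, SE 0.09), and Postn, periostin, 2648 ± 65.5 against 1005 ± 40.2 CPM (1.40, SE 0.08). Tgfb1, also on this list, went the other way, with 161 ± 13.7 against 239 ± 4.82 CPM (-0.57, SE 0.08). Vcam1, the ligand of the alpha-4 and alpha-9 chains, was lower too, with 127 ± 6.39 against 439 ± 14.5 CPM (-1.79, SE 0.08). Spp1, osteopontin, had 0.85 ± 0.37 against 18.7 ± 3.08 CPM (-4.44, SE 0.23). Lower ligands near 0 in HAS2_Tg, such as Spp1, could pass the low-count filter only through Has2_KO, which fixes their direction. Of 55 other focal adhesion proteins tested, 26 were higher, 9 lower and 20 not called (median 0.30), beside the same 20.2% and 20.5% of all genes. Flnc, a muscle filamin, had 66.7 ± 9.18 against 18.7 ± 2.53 CPM (1.84, SE 0.12) and Csrp1, a LIM protein of smooth muscle, 1043 ± 125 against 414 ± 16.3 CPM (1.33, SE 0.09). Apbb1ip, the RIAM adaptor that brings talin to integrins in blood cells, had a log2 fold change of -4.34 (SE 0.21) and Ptk2b, the Ptk2 relative Pyk2, one of -3.14 (SE 0.27), both near 1 CPM in HAS2_Tg. Their direction was fixed by the filter in the same way.

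Of 16 membrane proteins that associate with integrins, all tested, 5 were higher, 8 lower and 3 not called (median -0.24), again beside 20.2% and 20.5% of all genes. Some of the lower ones were near 0 in HAS2_Tg, such as Cd36 (0.56 ± 0.23 CPM, SD, n = 3). These could pass the filter only through Has2_KO, which fixes their direction. Cav2, caveolin-2, rose by 1.23 (SE 0.13) and Cd81, a tetraspanin, by 0.64 (SE 0.08), each on the log2 scale. Cd36, a scavenger receptor of endothelium and macrophages, fell by 6.64 (SE 0.18) and Cd9, another tetraspanin, by 2.10 (SE 0.12). Macrophage and endothelial markers moved with Vcam1, Spp1, Apbb1ip, Ptk2b, Cd36 and Cd9. Spp1 is itself on the list of 9 cholangiocyte markers, which summed to 3.31 to 3.77 CPM in HAS2_Tg and 28.2 to 31.5 CPM in Has2_KO, Spp1 included. The part of all these cells was not tested.

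Gene models limited some values. Itga9 has 2 RefSeq transcripts in the files, and its mean deposited length was 6239, 6679 and 6855 bases in the transgenic libraries and 6896 to 6977 in the knockout ones, so its FPKM was divided by a shorter length in HAS2_Tg replicate 4. For every other member with at least 10 CPM in a group the length differed by at most 1.47% between libraries. By GENCODE M21 (GRCm38), 1533 of the 1877 exonic bases of Ilk overlap exons of Taf10 on the opposite strand, and 2090 of the 5267 of Vcl overlap Ap3m1. No source used here says whether the counting used strand, so reads of such pairs may not be told apart, and the Ilk and Vcl values are uncertain to that extent. Expected counts of Itga4, Itga9, Itga11, Itgam, Itgb3, Itgb4, Tln2 and Fermt1 were fractional in some libraries, which RSEM gives where a read fits more than 1 gene.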

How the data were processed

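RNA from 6 libraries was analysed, 3 of HAS2_Tg and 3 of Has2_KO. RSEM and the mm10 build were used, per the submitters' processing notes; version, aligner and annotation are not given in the sources used here. The deposited expected counts are the authors' estimates of reads per NCBI gene, per the file headers, and the deposited FPKM values are scaled by gene length and depth, per the file headers. A gene missing from a library was set to 0. Names came from RefSeq's table for GRCm38.p6, which mm10 equals; 17857 of 17909 identifiers matched.

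After rounding, edgeR filtered the counts (filterByExpr), computed TMM factors and ran its quasi-likelihood test in robust mode (HAS2_Tg minus Has2_KO, two-sided, Benjamini-Hochberg over 13014 genes, 0.05). SE is the absolute log2 fold change over the root of the F statistic. Replicates differed by more than counting noise, which does not show that they came from separate animals. Shares and ratios used FPKM and exact permutation. On simulated counts (12952 genes tested) the test recovered 18.4%, 75%, 88% and 100% of genes changed 1.25-, 1.5-, 2- and 4-fold, with 4 of 143 calls false. The simulation gave all genes the same dispersion, changed few genes, equally up and down, and held no outlying library. In the data 40.7% of genes were called and HAS2_Tg replicate 4 stood apart, so these rates do not carry over to this comparison.

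Members, roles, lists and tests were chosen with earlier results of these data known. Every member is named, with Has2 and, for each pathway list, the 2 genes of smallest adjusted p per direction. Tgfb1 is named in addition, beside Tgfb3. Genes printed as markers came from fixed lists. Alternatives tried were scaling by total counts, upper quartile or DESeq2 size factors, no filter, a stricter filter (1 CPM in a group and a mean of 5), DESeq2's Wald test, limma on FPKM after log2 with a pseudocount of 1 or 0.1 with an FPKM of 1 in 3 libraries, limma unfiltered, an adjusted p of 0.01, a fold of 1.5, and each library left out. Software was DESeq2 1.42.0, limma 3.58.1 and edgeR 4.0.16 under R 4.3.3, and scipy 1.17.1, numpy 2.4.6, pandas 2.3.3 and matplotlib 3.10.9 under Python 3.11.15.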

Additional observations from a re-analysis of the deposited data

How the results depend on the processing

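Of 38 tested members, 30 kept their direction and their side of the threshold under every alternative scaling, filter, tool and left-out library that could test them, 29 of the 31 called ones among them; the called exceptions were Lims1 and Tln2. The count of leukocyte members called lower was 5 or 6 in all. Members outside that set called higher numbered 14 in the test against a fold of 1.5 and 19 to 22 otherwise, and those lower numbered 1 in that test and 3 to 6 otherwise. Over all genes, calls higher and lower were 1477 and 4827 with total counts, 1399 and 4198 with limma on log2(FPKM + 1), 1376 and 4138 on log2(FPKM + 0.1), 1366 and 4596 unfiltered, and 552 and 1045 against a fold of 1.5, beside 2625 and 2673. Itga10, never called, turned to -0.10 with total counts, -0.038 in unfiltered limma and, with a library left out, lay between -0.079 and 0.29, below 0 without HAS2_Tg replicate 4 (-0.0041) or 5. Where leaving out a library left a group with 2, the spread was pooled. No paired analysis was possible because the groups share no replicate numbers. Depth limits Itgb6, Itgb8, Itgb7, Itgae and Fermt1, which had too few counts to be tested.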
